A study of Mus musculus with 6 samples.

Results

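Ovaries of mouse pups 2 days after birth were compared with ovaries of newborn pups, under 24 h old, on 3 spotted 2-colour cDNA arrays, out of 6 in the series. The members are the 3 arrays whose titles name day 2 against day 0, and each holds a log2 ratio of day 2 over day 0 for 8272 probes. All mice were C57Bl/6J, with no allele, transgene or treatment named, and the RNA was total RNA of ovaries. Day 2 RNA 1, 2 and 3 were labelled with Cy5 and set against day 0 RNA 1, 3 and 8 in Cy3, so that each day 2 array has its own pair of RNA samples. The other 3 arrays compare day 4 ovaries with day 0 RNA 2, 4 and 8, and array 3 of both ages therefore shares a day 0 RNA. The labels call the 3 day 2 arrays biological replicates and do not say how many pups gave each RNA.

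The mouse ovary is born with oocytes in clusters that break up within days, while somatic pregranulosa cells enclose single oocytes as primordial follicles. The series text places the start of follicle assembly at day 2 in this strain, with growth of the new follicles soon after, and asks which genes differ over that time. Oocytes that enter growth build up growth factors such as Gdf9 and Bmp15 and proteins stored for the egg. The factors Figla, which binds E-box words, and Nobox, a homeobox protein, are known to drive many oocyte genes.

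In the day 2 ovary, genes known from oocytes had a probe above the newborn on all 3 arrays: Nlrp14, Fbxw27, Gdf9, H1f8, Oas1c and Oas1d. Another probe of Gdf9 and the other probes of Oas1c were below 0 on array 1. On 1 probe per gene, the one whose smallest value was largest, the mean difference ran from 1.64-fold for H1f8 to 3.44-fold for Nlrp14 (n = 3 arrays). Further probes above 0 throughout had smaller means, 1.48-fold for Gdf9 and 1.56-fold for Fbxw27. By the brightest probe per gene, 4 of 19 genes of the oocyte list were above 0 on all 3 arrays, and Foxo3 was below. In 7 of the 19, Bmp15 and Padi6 among them, array 1 alone was below 0. Array 1 alone was above 0 in 3 others, and array 2 stood alone in the rest. Over all probes arrays 1 and 2 ran opposite to each other (Pearson r −0.675). Below the newborn on all 3 arrays were Igf2, the fetal growth factor (2.12-fold), and the antioxidant enzyme Prdx1 (1.53-fold). No probe passed limma's test of day 2 against day 0 (0 of 8135 probes, 0.0%, Benjamini-Hochberg adjusted p at most 0.05), with 231 probes at an unadjusted p under 0.05 and a smallest adjusted p of 0.609. In whole ovaries, more cells of a type and more RNA per cell cannot be told apart.

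The E-box is the one motif shown in the promoters printed here, which belong to the oocyte genes of this group with a window in RefSeq's promoter table (mouse build GRCm38.p6). Each run is the 250 bases before the gene's start on its own strand, with every E-box (CANNTG, the same word on both strands) in capitals.
H1f8: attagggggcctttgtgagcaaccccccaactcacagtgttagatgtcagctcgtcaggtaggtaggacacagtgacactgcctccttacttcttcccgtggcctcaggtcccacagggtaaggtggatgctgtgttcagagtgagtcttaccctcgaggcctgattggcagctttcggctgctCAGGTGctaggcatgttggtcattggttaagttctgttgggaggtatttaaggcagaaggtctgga
Oas1c: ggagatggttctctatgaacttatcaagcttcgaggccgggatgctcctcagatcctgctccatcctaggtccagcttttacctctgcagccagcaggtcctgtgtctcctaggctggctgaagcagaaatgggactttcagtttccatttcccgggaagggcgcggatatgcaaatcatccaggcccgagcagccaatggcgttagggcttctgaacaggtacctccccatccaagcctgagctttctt
The H1f8 stretch lies at chr6:115944681-115944930 on the plus strand, upstream of the first exon, and holds 1 E-box. The Oas1c stretch lies at chr5:120812515-120812764 on the minus strand and holds none. Of the 15 named genes highest on all 3 arrays, 8 had a window of 300 bases (250 before and 50 after the start), and 5 of these 8 (62.5%) held an E-box in the first window listed. That share was 50% (4 of 8) for the 15 named genes lowest on all 3 arrays, less the 1 not reported here. It was 72.3% for all 32851 windows, which include later windows of a gene. The homeobox-type word TAATTG, searched on both strands, was in 0 of 8 first windows of either set and in 8% of all windows. A later window of Slx4ip, of the higher set, and one of Tsc22d1, of the lower set, held 1 each.

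Which way the day 2 ratios point is not settled for every array. Across the 8272 probes, arrays 1 and 2 ran opposite to each other (Pearson r −0.675, Spearman rho −0.709), although the labels state the same dyes and ages for both. Array 3 was near 0 with array 1 (r 0.020) and weakly positive with array 2 (r 0.228). Within an array the 4 repeats of a probe correlated at 0.860 to 0.917, and between arrays 1 and 2 every pair of repeats fell between −0.638 and −0.590. The opposition was thus present in every pair of repeats. It was weakest in the dimmest 1 of 5 intensity classes of probes (r −0.242) and strongest in the brightest (r −0.719). Mean log2 intensities, which hold no direction, correlated at 0.953 between these arrays. These are correlations across probes, which are not independent replicates, and are given as descriptions. The day 4 arrays with no RNA in common with day 2, arrays 1 and 2, gave 0.270 and 0.176 with day 2 array 1, 0.109 and 0.239 with day 2 array 2, and 0.348 and 0.379 with day 2 array 3. Day 4 array 3, which shares an RNA with day 2 array 3 only, gave 0.023 with day 2 array 1 and 0.225 with day 2 array 2. Its Spearman rho was −0.060 with array 1 and 0.282 with array 2. All these Pearson values are above 0 for both arrays in question, though that of array 1 with day 4 array 3 is near 0. For this reason counts over all probes, and their overlap with day 4, follow with array 1 or array 2 turned as well, whereas counts within gene lists are given as measured.

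**Figure D1:**
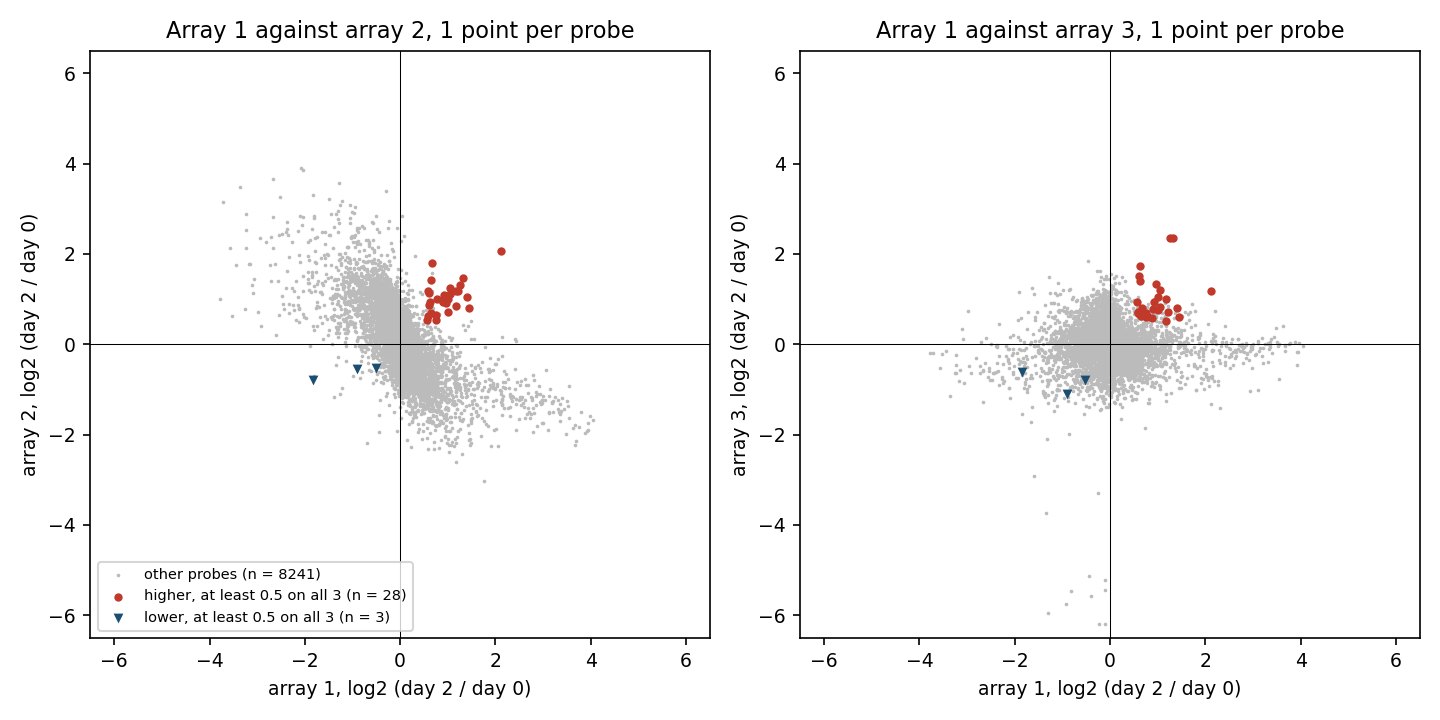
Log2 ratio (day 2 over day 0, mean of 4 repeats) of each of 8272 probes on array 1 (horizontal axis) against array 2 and array 3 (vertical axes). Grey points are probes that are not alike, red points the 28 probes at least 0.5 higher on all 3 arrays and dark triangles the 3 at least 0.5 lower; the cloud falls from upper left to lower right for array 2 (r −0.675) and has no slope for array 3 (r 0.020).

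Depth on these arrays is set by signal. Median mean log2 intensity was 8.74, 8.77 and 10.5 on day 2 arrays 1, 2 and 3, and the standard deviation of the log2 ratios over probes was 0.63, 0.74 and 0.43. The authors flagged 558, 795 and 1664 probes on these arrays, of which 997 on array 3 carried the flag named for signal. The number of arrays, 3, limits the precision. Medians of the log2 ratios were within 0.03 of 0, so that all differences are relative to the typical probe of an array. With 1 dye orientation throughout, a dye effect specific to a gene would be alike on all 3 arrays and cannot be told apart from age.

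A probe is called alike here when its 3 log2 ratios have the same sign and are each at least 0.5 in size (1.41-fold), a description without a test. By this rule 28 probes were higher at day 2 (0.338% of 8272) and 3 were lower (0.0363%), 31 in all (0.375%). Counting signs of any size, 748 probes were above 0 on all 3 arrays (9.04%) and 606 below (7.33%), 16.4% in all. With array 1 turned that share is 44.1%, and with array 2 turned 30.8%. In contrast 6199 probes (74.9%) had opposite signs on arrays 1 and 2. Among probes past 0.5 on both arrays, 1391 were opposite and 55 had the same sign. With the sign of array 1 turned 195 probes were alike (2.36%, 92 higher and 103 lower), and with that of array 2 turned 140 (1.69%, 33 higher and 107 lower). The 31 probes are not alike under either turn by construction. Under both turns limma again called 0 probes, with 1884 (array 1) and 1120 (array 2) at an unadjusted p under 0.05.

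**Figure D2:**
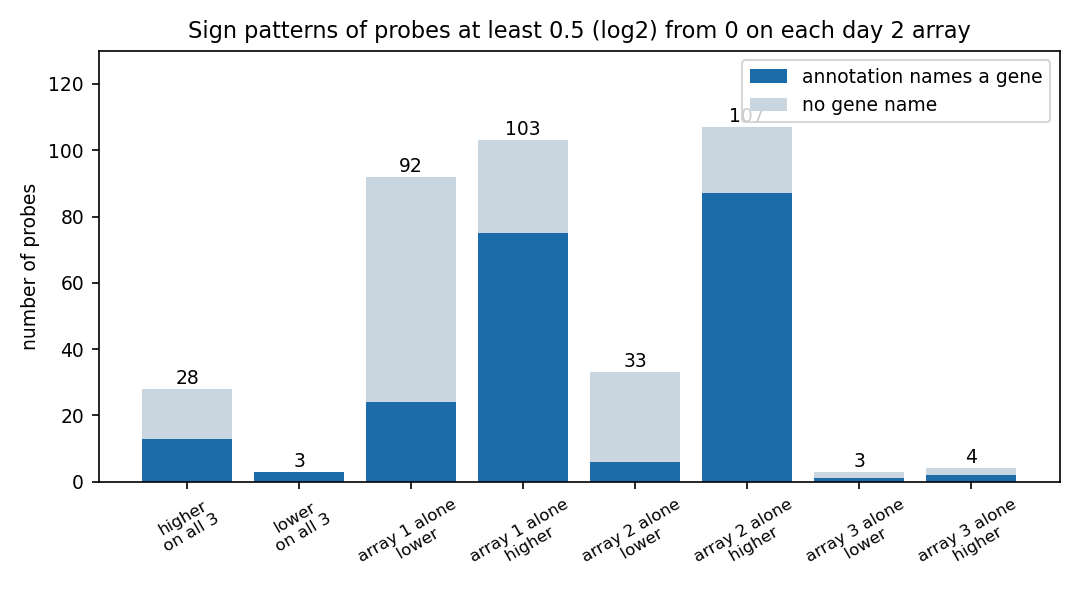
Number of probes at least 0.5 (log2) from 0 on each of the 3 day 2 arrays, by sign pattern, split into probes whose annotation names a gene (dark) and others (light). Patterns in which array 1 or array 2 stands alone hold 92, 103, 33 and 107 probes, those alike on all 3 arrays 28 and 3, and those in which array 3 stands alone 3 and 4.

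Among genes of the growing oocyte, Nlrp14, an NLR family member expressed in oocytes, had log2 ratios of 2.11, 2.06 and 1.18 on arrays 1, 2 and 3. Its mean was 1.78 ± 0.41 (SE, n = 3, limma adjusted p = 0.97). Fbxw27, of the F-box family, had 1.26, 1.32 and 2.35 (mean 1.64 ± 0.30, limma adjusted p = 0.82). Both of these probes lay more than 1 log2 unit above the newborn on every array. The second probe of Fbxw27 had 0.58, 0.63 and 0.72, so that both of its probes were alike.

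Gdf9, the growth factor the oocyte secretes to its follicle, had 0.64, 1.42 and 1.41 on the probe that was alike (mean 1.16 ± 0.18, n = 3, limma adjusted p = 0.61). Its other probes had −0.45, 2.49 and 1.85, and 0.03, 0.52 and 1.16. All 3 probes were thus above 0 on arrays 2 and 3, while on array 1 they spread from −0.45 to 0.64. Bmp15, the partner of Gdf9, had −0.03, 0.32 and 0.70, near 0 on array 1 and highest on array 3. H1f8, the linker histone of oocytes, had 0.60, 0.88 and 0.67 (mean 0.72 ± 0.12, limma adjusted p = 0.61), 3 values within 0.3 of each other.

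The oligoadenylate synthetase genes Oas1c, Oas1d and Oas1e code for relatives of an antiviral enzyme that senses double-stranded RNA, and some of them are known from oocytes. Oas1c had 0.66, 1.80 and 0.80 on its alike probe, and Oas1d had 0.31, 1.95 and 1.41. Oas1e had −0.26, 2.58 and 1.18. On array 2 these 3 probes were at least 1.80 higher than the newborn, and on array 1 only 1 of them passed 0.5. Other probes of Oas1c had −0.10, 1.07 and 0.82, and −1.58, 1.41 and 1.11, which are below 0 on array 1. With the sign of array 2 turned, the means of Oas1c, Oas1d and Oas1e become −0.11, −0.08 and −0.55.

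Padi6, an enzyme stored in the egg, differed widely between arrays, with −1.26 on array 1, 3.08 on array 2 and 0.41 on array 3. The value on array 2 was one the authors flagged. Oosp1, a protein secreted by oocytes, had −0.19, 0.10 and 0.17, and Btg4, which links maternal transcripts to their degradation, had 0.12, 0.42 and 0.17 on the probe with the same sign throughout. These 3 genes show no shared size at day 2, and the other probes of Btg4 differed in sign (1.11, −0.71 and 0.15, and −0.05, 0.82 and 0.49). Foxo3, which holds primordial oocytes at rest, had −0.09, −0.24 and −0.26.

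Over the oocyte and primordial follicle list, 19 of 47 genes were found on the array by name. With the brightest probe per gene, 4 were above 0 on all 3 arrays (Nlrp14, Fbxw27, H1f8 and Oas1d), 1 was below (Foxo3), and 3 of the 4 passed 0.5 throughout. That is 26.3% alike in sign, against 14.5% of the 3773 genes with a name. This list, like the other gene lists below, was chosen with earlier results of these data known. Shares within lists are therefore descriptions and not tests. In 7 genes array 1 alone was below 0 while arrays 2 and 3 were above: Bmp15, Gdf9, Mos, Oas1c, Oas1e, Oosp1 and Padi6. That pattern was found in 564 of the 3773 named genes. Of the other genes of the list, 3 had array 1 alone above 0 and so were below 0 on arrays 2 and 3. A further 3 had array 2 alone below 0, and 1 had array 2 alone above. The list's median was 0.07, 0.11 and 0.25 on arrays 1, 2 and 3, and over all named genes it was −0.00, −0.05 and −0.10. As a check of the tissue, 6 of 13 defining oocyte markers were on the array, with a median of −0.11 on array 1, 1.47 on array 2 and 0.69 on array 3. The intensities of these 6 lay between percentiles 15.8 and 96.2 of all probes. In the list of genes for meiotic prophase, Exo1, a nuclease in recombination, had 1.17, 0.84 and 0.52 on one probe and −0.23, 1.85 and 0.20 on the other. Sycp3, a part of the synaptonemal complex, had −0.03, −0.45 and −0.00.

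**Figure D3:**
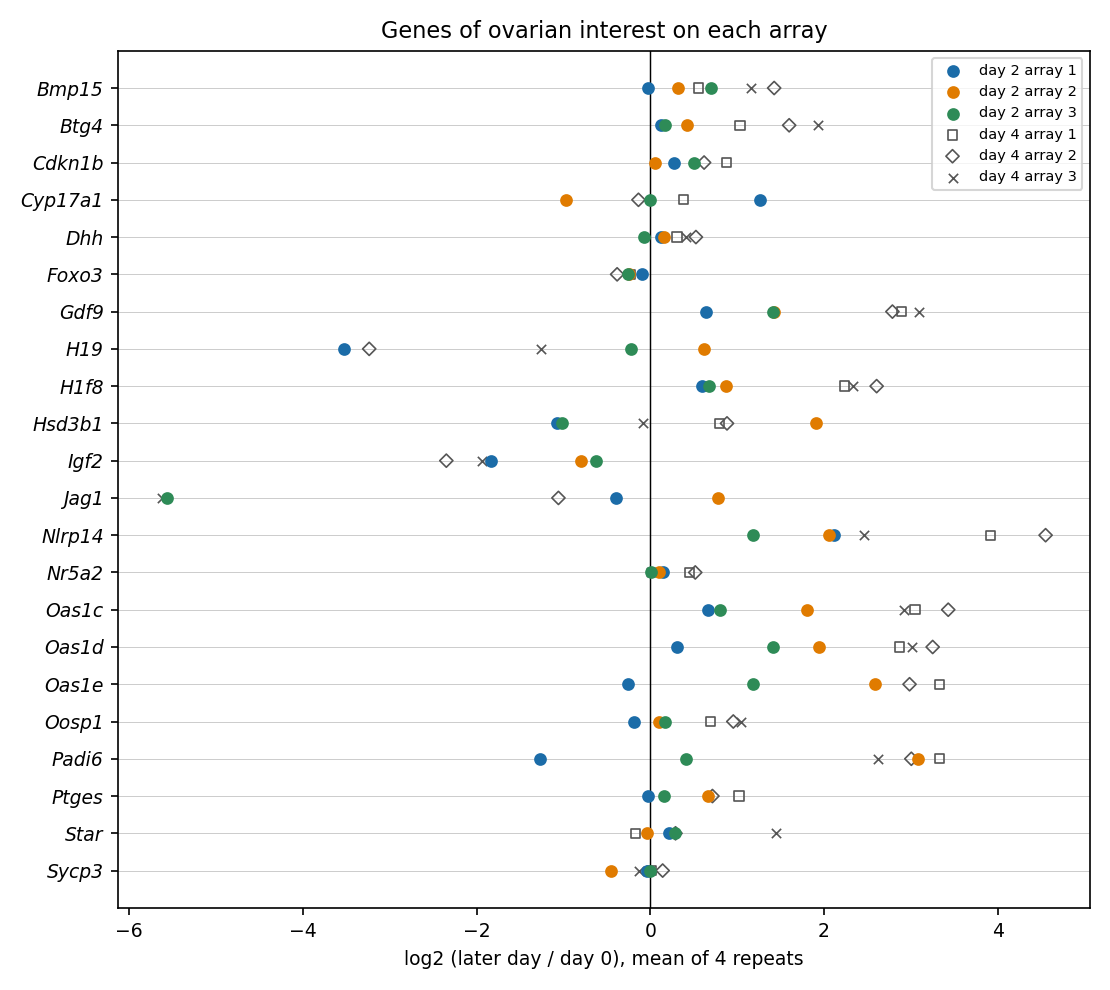
Log2 ratio over day 0 (horizontal axis, mean of 4 repeats) of genes of ovarian interest found on the array by name, 1 row per gene, with filled circles for the 3 day 2 arrays and grey open or crossed marks for the 3 day 4 arrays. Nlrp14 and Gdf9 lie right of 0 on all 3 day 2 arrays, Padi6 spreads from −1.26 to 3.08, and Jag1 has −5.57 on day 2 array 3.

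Other genes higher on all 3 arrays are not on the oocyte list. Rgs12, a regulator of G-protein signalling, had 1.05, 1.24 and 0.82, and its second probe 0.78, 1.00 and 0.62. Slx4ip, which binds the nuclease scaffold Slx4, had 0.89, 0.93 and 0.78, and Appl1, an adaptor on early endosomes, had 0.76, 0.65 and 0.68. The values of Slx4ip and of Appl1 lay close together, and limma gave each of these 3 genes an adjusted p of 0.61. Spopl, an adaptor of a ubiquitin ligase, had 0.88, 0.98 and 0.58, but its second probe had −1.25, −1.10 and 0.72. Trpm7, an ion channel with a kinase domain, had 1.00, 1.01 and 0.75 on 1 of 4 probes. The other Trpm7 probes had −0.32, 0.30 and −0.04, −0.62, 1.45 and 0.13, and −0.89, 1.69 and 0.72. So for Spopl and Trpm7 the likeness holds for 1 probe and not for the gene.

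The remaining genes by this ranking had a smallest value between 0.31 and 0.50. Acox3, an oxidase of peroxisomal fatty acid breakdown, had 0.79, 0.63 and 0.50, just outside the threshold, and Exo1 was the last named gene inside it. Tef, a transcription factor of the PAR family, had 1.06, 1.22 and 0.41, and its other probes −0.95, 1.06 and −0.18, and −0.01, −0.04 and 0.84. Eef1a1, an elongation factor of translation, had 0.35, 0.66 and 0.50, and its second probe −0.63, 0.20 and 0.45. Of the 28 probes higher by at least 0.5, 13 had a gene name, for 11 genes, and 15 had none.

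Igf2, a growth factor of fetal tissues that is expressed from the paternal allele, had −1.84, −0.80 and −0.62 on arrays 1, 2 and 3 (mean −1.09 ± 0.27, n = 3, limma adjusted p = 0.97). All 3 values are below the newborn, and array 1 is by far the lowest. With the sign of array 1 turned the mean becomes 0.14. H19, an imprinted noncoding RNA encoded beside Igf2, had −3.52, 0.62 and −0.22, and its value on array 1 was the lowest of the imprinted genes. Peg10, of retrotransposon origin, had −0.70, −2.19 and −0.05 (mean 0.48 with array 2 turned), and Ube3a, a ubiquitin ligase, had −1.39, −1.17 and −0.27. The second probe of Ube3a had −0.12, 0.17 and −0.36. Of 13 imprinted and fetal growth genes found on the array (of 34 listed), 5 were below 0 on all 3 arrays and 0 above, 38.5% alike in sign against 14.5% of all named genes. The list's medians were −0.34, −0.19 and −0.22. Dlk1, a Notch-like ligand of fetal tissues, had −1.89, −0.05 and 0.09, so that arrays 1 and 3 differed in sign.

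Among chaperones, Cct4, a subunit of the cytosolic chaperonin ring, had −0.91, −0.56 and −1.11 (mean −0.86 ± 0.15, n = 3, limma adjusted p = 0.93). Its second probe had 0.19, 0.53 and 1.36, above 0 on all 3 arrays, so that the 2 Cct4 probes contradict each other. Cct5 had −0.19, −0.46 and −1.04. Of the other ring subunits, Cct3 had −2.12, 0.81 and −0.97, Cct7 had −2.11, 1.83 and −0.42, and Cct8 had −1.29, 0.26 and −0.80. Tcp1 had −0.50, 0.03 and −0.36. On the probes that stand for the list all 6 subunits were below 0 on arrays 1 and 3, and 4 of them were above 0 on array 2.

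Ppib, a prolyl isomerase of the endoplasmic reticulum, had −0.50, −0.78 and −0.54, and Dnajc8, a J-domain protein, −0.31, −0.40 and −0.67. Of the 46 chaperone and folding genes, 13 were below 0 on all 3 arrays and 1 above, 30.4% alike in sign against 14.5% of all named genes (360 below and 187 above of 3773). The list's median was −0.29 on array 1, 0.01 on array 2 and −0.37 on array 3. Hsp90ab1, a cytosolic heat shock protein, had −3.23, 2.53 and −0.23 on its brightest probe, 0.56, −0.84 and −0.38 on another and −1.17, 2.03 and 0.64 on the last. Its probes disagree within every array, and no direction can be given for the gene.

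Prdx1, a peroxide-reducing enzyme, had −0.52, −0.52 and −0.80, and its second probe −0.06, −0.19 and −1.03, below 0 on all arrays too. Rpl30, a protein of the large ribosomal subunit, had −0.62, −0.60 and −0.48 on one probe and 1.05, −1.92 and −0.997 on the brighter one. Podxl, a sialomucin of endothelium and some epithelia, had −0.82, −0.37 and −0.68, and Pecam1, an endothelial adhesion molecule, −0.17, −0.57 and −0.45. Esam, of endothelial junctions, had −0.08, −0.29 and −0.08. Of the 18 endothelial genes listed 5 were found, 3 of them below 0 on all arrays. That is 60% alike in sign, against 14.5% of all named genes, but over only 5 genes. Cdh5 had 0.13, −0.48 and 0.09 and Emcn 0.06, −0.63 and −0.48. Of 8 red cell markers 5 were on the array, with medians of −0.25, 1.29 and −0.26 and none alike on all 3 arrays, and their part in these values was not tested.

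Other named genes below 0 on all 3 arrays have varied known roles. Tsc22d1, a leucine zipper protein induced by TGF-beta, had −1.35, −0.45 and −1.07, and its second probe 0.13, −0.37 and −0.30. Ctnnb1, beta-catenin, had −1.14, −0.37 and −0.62, and C1s, a complement protease, −0.44, −0.62 and −1.11. Cfdp1, a chromatin protein, had −0.56, −0.85 and −0.48 on 1 of 3 probes, and the others had 0.21, −0.87 and −0.26, and −0.01, −0.48 and −0.13. Hmgn2, a nucleosome-binding protein, had −0.38, −0.43 and −0.98, Fbl, the nucleolar methyltransferase fibrillarin, −0.45, −0.35 and −0.51, and Rab14, a small GTPase of endosomes, −0.39, −0.64 and −0.59. The second Rab14 probe had 0.43, −0.69 and −0.55, above 0 on array 1. Npc1, a cholesterol transporter of lysosomes, had −1.81, −0.71 and −0.48 and was not tested, having too few day 4 values, and its second probe had −0.32, 0.60 and 0.93. Limma's adjusted p for the tested genes of these groups ran from 0.93 to 0.97. Turning array 1 gives Npc1 a mean of 0.21 and Ctnnb1 one of 0.05.

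**Figure D4:**
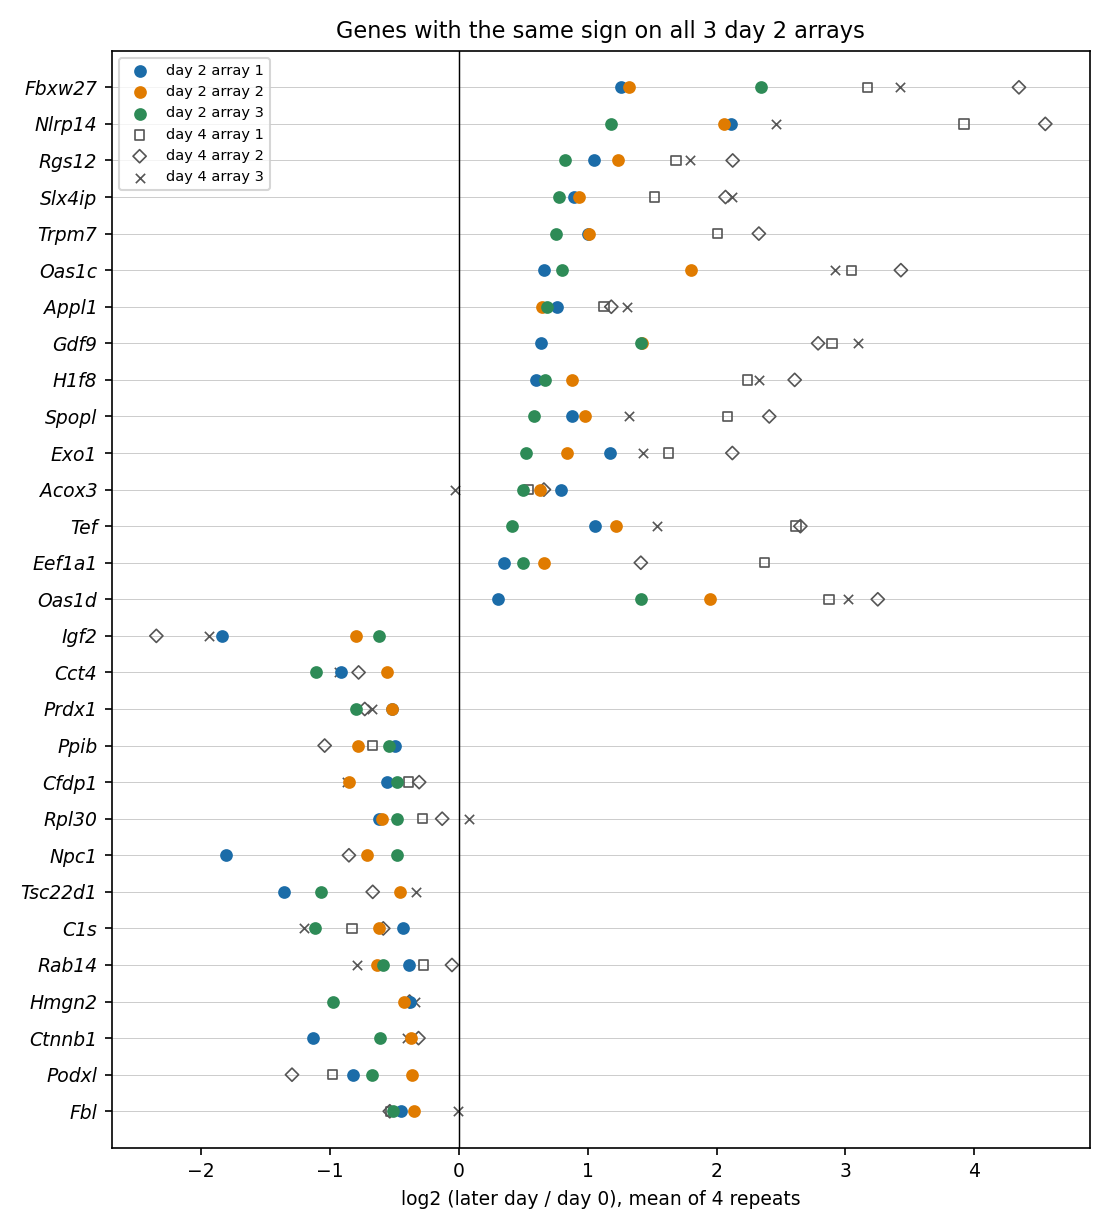
Log2 ratio over day 0 (horizontal axis, mean of 4 repeats) of the 15 named genes highest and 14 of the 15 lowest by their smallest value on the 3 day 2 arrays, 1 row per gene. Filled circles are day 2 arrays 1, 2 and 3 and grey marks day 4 arrays 1, 2 and 3; Gdf9 and H1f8 have all day 4 marks right of all day 2 circles, whereas Rpl30 has its day 4 marks nearer 0.

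The few somatic genes of the follicle found by name had small values. Of 9 granulosa cell markers 3 were on the array (Cdkn1b, Dhh and Nr5a2), with brightest probes at intensity percentiles 9.8 to 44.7. Small values of such dim probes are not read here as an absence of change. Cdkn1b, a cell cycle inhibitor, had 0.27, 0.05 and 0.51, and Nr5a2, a nuclear receptor of granulosa cells, 0.15, 0.10 and 0.01 on one probe and −0.16, 0.22 and 0.03 on the other. Dhh, a hedgehog ligand, had 0.12, 0.16 and −0.07, and Ptges, a prostaglandin synthase, −0.03, 0.67 and 0.16. Only Cdkn1b on array 3 and Ptges on array 2 passed 0.5 among these 4 genes.

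Steroid genes split by array. Hsd3b1, which makes progesterone from pregnenolone, had −1.08, 1.91 and −1.02, and its second probe −0.78, 1.11 and −0.63. Cyp17a1, the enzyme leading to androgens, had 1.27, −0.97 and −0.01, and Star, which brings cholesterol into mitochondria, 0.22, −0.03 and 0.29. All 6 steroid and theca genes found had opposite signs on arrays 1 and 2, against 78.1% of all named genes. The authors flagged the array 1 value of Cyp17a1 and the array 3 value of the brighter Hsd3b1 probe.

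Tpm1, a tropomyosin, had 0.15, 0.38 and 0.69, and S100a6, a calcium-binding protein of stroma, 0.18, 1.19 and 0.67. They were the 2 of 10 smooth muscle and stromal genes above 0 on all 3 arrays. That is 20% alike in sign, near the 14.5% of all named genes. The list's median was −0.21, 0.68 and 0.07, and Mylk, the myosin light chain kinase, had −0.62, 0.84 and 0.11. Bmpr1a, a receptor for bone morphogenetic proteins, had −0.73, −0.06 and −1.30, and its other probe 0.11, −0.64 and 0.03. Ovgp1, the oviduct glycoprotein, had 0.09, 0.52 and 1.23, and the 4 keratin markers of epithelium found had medians of −0.23, −0.30 and 0.26.

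Jag1, a Notch ligand that oocytes present to pregranulosa cells, had −0.39, 0.78 and −5.57, so that its day 2 mean of −1.72 rests on array 3. On that array 13 probes were at or under −2, and none of them was that low on array 1 or 2. Of the 11 with a value on day 4 array 3, which used the same day 0 RNA, 10 were at or under −2 there too. Without day 2 array 3, Jag1 had a mean of 0.20 at day 2. All 5 Notch genes found were opposite in sign on arrays 1 and 2, as were 78.1% of all named genes.

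Large gene classes had medians of opposite sign on arrays 1 and 2. Of 32 cytosolic ribosomal protein genes 28 (87.5%) were opposite, against 78.1% of all named genes, with medians of 0.31, −0.96 and −0.43. Of these 32, 18 were above 0 on array 1 alone, against 1059 of the 3773 named genes. Oxidative phosphorylation genes (20) had medians of 0.56, −0.87 and −0.07, and proteasome genes (23) of 0.17, −0.51 and −0.21. The medians of these 3 classes were above 0 on array 1 and below on array 2. Glycolysis and hypoxia genes (18) ran the other way, with medians of −0.24, 0.39 and −0.20. In 13 of these 18 array 2 alone was above 0, against 835 of the 3773 named genes. Cell cycle genes (45) had −0.08, 0.34 and −0.22, with 19 above 0 on array 2 alone, such as Top2a, the topoisomerase of dividing cells (−0.75, 1.83 and −0.33), and Mcm5, of the replicative helicase (−0.63, 1.28 and −0.25). Within these classes a few members had the same sign on all 3 arrays, none of them alike at 0.5: Cox4i1, of cytochrome c oxidase, had −0.24, −0.33 and −0.52, and Psme1, a proteasome activator, −0.36, −0.51 and −0.28. In the cell cycle list Ncapg, a condensin subunit, had 0.64, 0.09 and 0.35, and 4 of 45 genes were above and 3 below 0 on all 3 arrays (15.6%, near the 14.5% of all named genes).

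**Figure D5:**
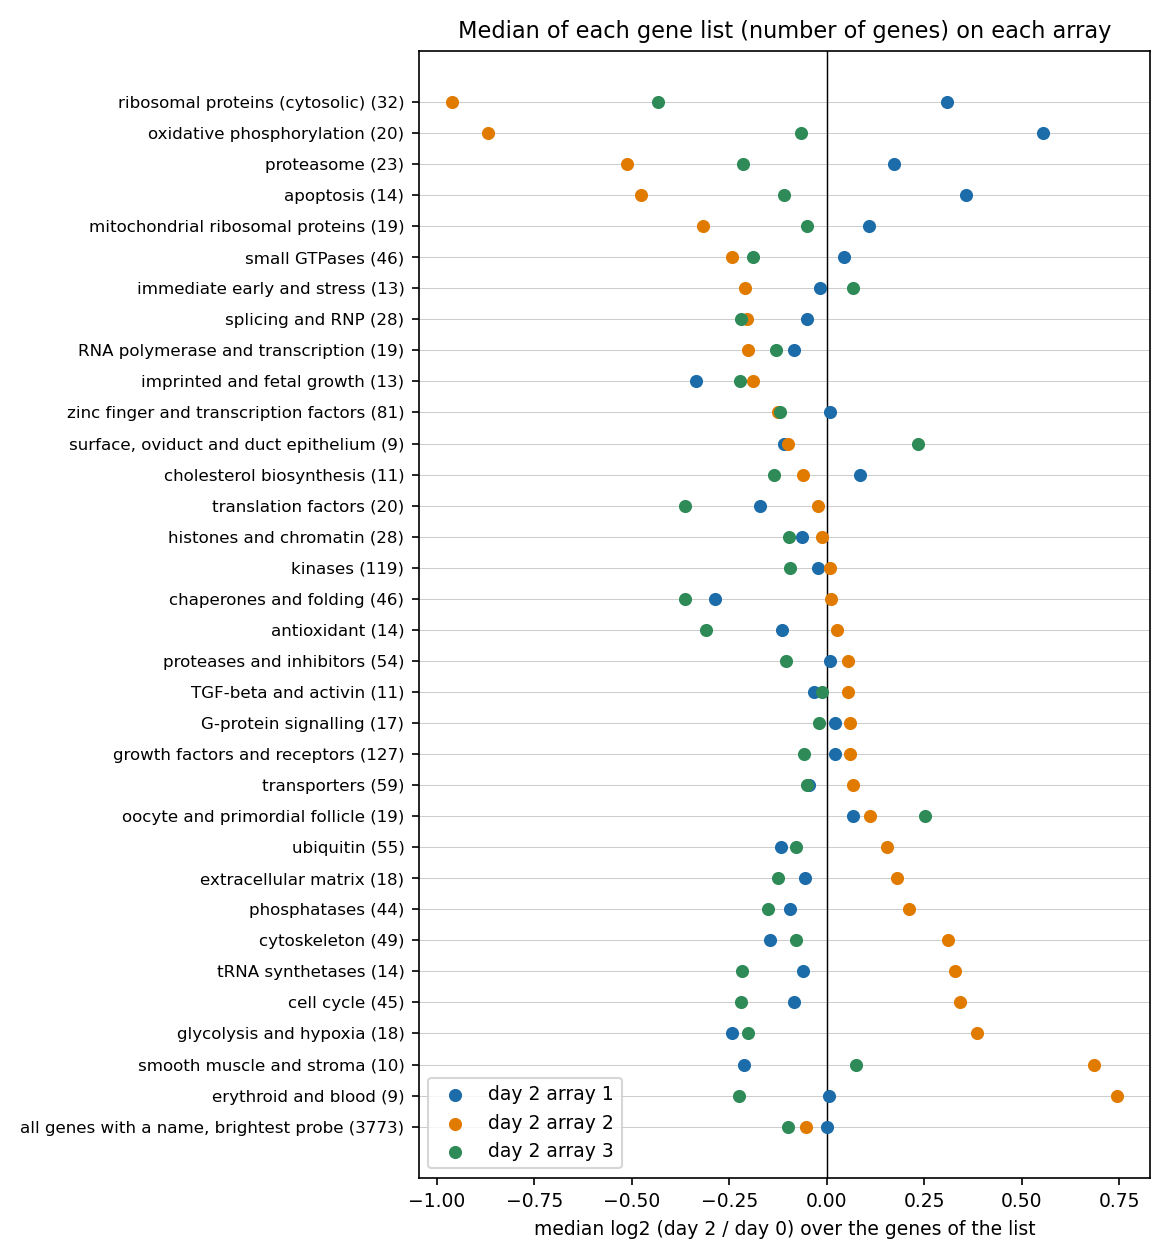
Median log2 ratio (day 2 over day 0) of each gene list with 9 or more genes found (number in brackets; the mixed list of genes of ovarian interest is not drawn) and of all named genes, on day 2 arrays 1, 2 and 3 (coloured points). Ribosomal, oxidative phosphorylation and proteasome lists have array 1 right of 0 and array 2 left of it, the glycolysis and cell cycle lists the reverse; the oocyte list has all 3 points right of 0 and the imprinted list all 3 left.

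Turning an array brings other genes to the top. With array 1 turned, the named genes highest on all 3 arrays included Oas1c by another probe (as measured −1.58, 1.41 and 1.11), Hsp90ab1 (−1.17, 2.03 and 0.64) and Mns1, a protein of meiosis and cilia (−0.78, 1.84 and 1.04). The lowest included Atg7, an enzyme of autophagy (2.12, −1.28 and −1.31; second probe 0.13, −0.15 and −0.09), and Hprt, of purine salvage (1.81, −1.77 and −1.01). With array 2 turned, the highest included Cbx5, a heterochromatin protein (2.19, −0.97 and 0.73; second probe 1.04, 0.70 and −0.11), and the lowest Eif4a1, a helicase of translation initiation (−1.67, 1.17 and −1.72), Ywhaz, a 14-3-3 protein (−1.17, 1.08 and −1.23), and Rhoa, a GTPase of the cytoskeleton (−1.21, 1.27 and −1.05). All 4 probes of Eif4a1 had this sign pattern, while the second Rhoa probe had 0.47, −0.01 and −0.29.

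The day 4 values stand beside those of day 2 for the same probes. Day 4 arrays 1 and 2 share no RNA with any day 2 array. Of the 28 probes higher by at least 0.5 at day 2, 27 had values on both, and all 27 were above 0 on both, with medians of 2.00 and 2.41. Over all 7775 probes measured on both, 36.6% were above 0 on both and 33.3% below, with medians near 0. Of the 35 probes lower by at least 0.25 at day 2, 25 had both values, of which 21 were below 0 on both and 2 above (medians −0.53 and −0.45). The 3 probes lower by at least 0.5 lacked a value on day 4 array 1.

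The probes picked with an array turned gave other values. With array 1 turned, 64 of the 92 higher probes had both day 4 values, and 49 of these were above 0 on both. Of the 79 lower probes with both values, 31 were below 0 on both and 28 above. With array 2 turned, 15 of 29 higher probes were above 0 on both and 40 of 57 lower probes below. A dye effect specific to a gene would recur on every array of the series and is part of all these values.

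A dye effect would cancel in the difference between the ages only if it were constant over the arrays, which was not tested. Every day 4 value lay above every day 2 value for 24 of the 28 probes, and for 433 of the 8135 tested probes (5.32%). For 1 of the 28 every day 4 value lay below, as for 3.98% of the tested probes. Gdf9 had 2.90, 2.79 and 3.10 at day 4, H1f8 2.24, 2.61 and 2.33, and Nlrp14 3.92, 4.55 and 2.46. Acox3 had 0.54, 0.66 and −0.03, the only named gene of the 15 highest whose mean was lower at day 4 than at day 2. Limma called 0 of 8135 probes between day 4 and day 2 (0.0%), with 215 at an unadjusted p under 0.05. The smallest adjusted p was that of H1f8 (day 4 minus day 2 1.68, adjusted p = 0.356). By the same fit 39 probes (0.479%) passed at day 4 against day 0. That count fell to 0 without any 1 of the day 4 arrays, without both arrays numbered 3, with day 2 array 2 turned or with a variance trend. Leaving out day 2 array 3 gave 16 probes and leaving out day 2 array 1 gave 71. It was 21 with the replicate block, 96 after scale normalization and 550 with array weights.

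Genes with several clones show how far probes of a gene share a sign within an array. Of the 717 genes with 2 or more probes, all probes had the same sign in 379, 404 and 424 genes on arrays 1, 2 and 3. In the remaining genes the probes did not all have the same sign. The count expected of probes with unrelated signs was not worked out, so these counts are no support for likeness. Among probes without a gene name, 339 of 1827 annotated only as expressed sequence tags were above 0 on all 3 arrays and 66 below (22.2% alike in sign, against 16.4% of all probes). A further 160 probes annotated as similar to one and the same RIKEN cDNA had medians of −0.37, 1.02 and 0.35, with 90.6% opposite on arrays 1 and 2, against 74.9% of all probes. These classes were formed after their values were seen.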

How the data were processed

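Total RNA of mouse ovaries was hybridised to 2-colour cDNA arrays. Per the file headers, the deposited values are log2 ratios of Cy5 (day 2 or day 4) over Cy3 (day 0), with 4 repeats per probe, and a mean log2 intensity deposited beside them. Processing by the authors involved R 1.7.1, per the submitters' processing notes. How background was corrected and ratios normalized is not given in the sources used here; medians of the deposited log2 values lie near 0. The flags are not defined in the headers, and an authors' p was absent wherever one was set.

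Repeats were averaged per probe and array with Python 3.11.15, pandas 2.3.3 and numpy 2.4.6, without further normalization; figures used matplotlib 3.10.9. Tests used limma 3.58.1 (R 4.3.3) on all 6 arrays with 1 mean per age, on 8135 probes with values on at least 2 arrays of each age, 2-sided, Benjamini-Hochberg over all probes, threshold 0.05. Each SE comes from this fit, whose spread pools both ages. The labels do not say whether RNA pools came from separate litters, so p-values measure the spread between these samples. The code was tested on simulated data.

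Clone annotations gave a gene name to 4680 of 8272 probes (1597 through a mouse gene table, 389 by hand from older names, the others by the annotation name), and 3592 had none. In gene lists the brightest probe stood for a gene. Named genes were, among probes with a gene name, the 15 highest and 15 lowest by the smallest of 3 like-signed values, the 6 in each direction with array 1 or 2 turned, up to 3 alike members per list of 44 lists, and a list of ovarian interest at any value (22 of 53 genes found). Of the 15 lowest, 1 is not reported here. Cct3, Cct5, Cct7, Cct8, Tcp1, Dlk1, Peg10, Cdh5, Emcn, Mylk, Top2a, Mcm5 and the members listed by sign pattern were named after their values were seen. Members and lists were chosen with earlier results of these data known, and the patterns defining 5 lists were corrected after their members were seen.

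Deviations of same-numbered day 2 and day 4 arrays correlated at 0.37, 0.05 and 0.51, and the third pair shares a day 0 RNA, so the numbers were not taken to pair the arrays. Alternatives were turned array signs, median centring, scale normalization, flagged values left out, the deposited value table, each array left out, a replicate block, a variance trend, filters and array weights.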

Additional observations from a re-analysis of the deposited data

Results flagged for a closer look

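In 3 of the named genes every day 2 array had one sign and every day 4 array with a value had the opposite one. Ube2c, a ubiquitin-conjugating enzyme of mitosis, was above 0 at day 2 (0.16, 0.88 and 0.20) and just below 0 on the day 4 arrays that measured it (day 4 minus day 2 −0.45). Jun, an immediate early transcription factor, was below 0 at day 2 (−0.08, −0.21 and −0.12) and above it at day 4 (0.19 and 0.21; difference 0.34). Klf4, a transcription factor of epithelia, was above 0 at day 2 (0.06, 0.11 and 0.09) on one probe. That probe was below 0 at day 4 (−0.27, −0.19 and −0.05, with a difference of −0.26). Its day 2 values were smaller than the standard deviations of their own repeats (0.12, 0.33 and 0.10), at intensity percentile 18.8. The second Klf4 probe was below 0 at day 2. Limma's test of the difference between the ages passed for none of these genes (0 of 8135 probes; 215 at an unadjusted p under 0.05), and groups of 3 arrays are too small for a check on single outlying arrays.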

How the results depend on the processing

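Limma's count of 0 probes, at day 2 against newborn and between the later ages, was the same under all alternatives run but array weights, which gave 5013 (2460 higher, 2553 lower) and 399 (274 higher, 125 lower). Those weights were 20.2 for day 2 array 3 against 0.24 and 0.19 for arrays 1 and 2, so that this fit rests on 1 array. Leaving out each array in turn gave 0 and 0. With the replicate block the counts were 0 (381 at an unadjusted p under 0.05) and 0 (224), and no call of these comparisons changed; not every array deviated most like its own number.

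The 39 probes called at day 4 against day 0 (alternatives added after seeing the data) became 0 with array 2 of day 2 turned, with the variance trend and without both arrays numbered 3, 96 after scale normalization, 21 with the replicate block and 550 with array weights. Leaving out each array in turn gave 0 to 71, with 0 without any 1 of the day 4 arrays.

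The 31 alike probes became 195 with array 1 turned, 140 with array 2 turned, 55 to 657 when each day 2 array was left out in turn (likeness on the 2 others; 657 without array 1, 270 without array 2, 55 without array 3), 88, 11 and 4 at a size of 0.25, 0.75 and 1, and 16 among probes with a gene name, an alternative added after seeing the data. They stayed at 25 to 31 under centring, scaling, flags, the value table, the median of repeats, 2 standard errors and an intensity filter.

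Mean log2 values of the named genes changed sign as follows. With array 2 turned Oas1c had −0.11, Oas1d −0.076, Oas1e −0.55, Padi6 −1.31, Oosp1 −0.039, Btg4 −0.044, Ptges −0.18, Dhh −0.036, Sycp3 0.14, S100a6 −0.11, Tfrc −0.12, Esam 0.043, Epcam 0.048, Ube2c −0.17, Jun 0.004 and Psmc3 0.084. With array 1 turned Igf2 had 0.14, H19 1.30, Hsd3b1 0.66, Cyp17a1 −0.75, Npc1 (not tested) 0.21, Ctnnb1 0.049, Nr5a2 −0.012, Ncapg −0.068, Bag3 0.022, Egln1 0.014, Sars −0.076, H3f3b 0.042 and Dhh −0.0099. Without flagged values Padi6 had −0.43, Oosp1 −0.047, Hsd3b1 0.42 and Cyp17a1 −0.49, and without both arrays numbered 3 Oosp1 had −0.047 and Hsd3b1 0.42. Of the genes named after their values were seen, Dlk1, Cct3, Cct7, Cct8 and Tcp1 changed sign with array 1 turned (0.054 for Tcp1 to 1.17 for Cct7). Peg10 (0.48), Cdh5 (0.23), Emcn (0.067), Mylk (−0.45), Mcm5 (−0.72) and Top2a (−0.97) did so with array 2 turned.
Leaving out each array in turn gave −0.43 to 1.75 for Padi6, −0.047 to 0.14 for Oosp1, −2.98 to 0.20 for Jag1 (0.20 without day 2 array 3), −1.05 to 0.45 for Hsd3b1, −1.87 to 0.20 for H19 and −0.49 to 0.63 for Cyp17a1.
The cause of these changes was not tested. The number of arrays limits what can be detected.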
